A study of Mus musculus with 2 samples.

Results

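Single-cell RNA profiles were used to describe the natural killer (NK) cells of the mouse spleen that carried the most RNA for the chemokines Ccl3, Ccl4 and Xcl1 and for 4 further genes of recent activation, Tnfrsf9, Crtam, Nr4a3 and Nfkbid. In each library a cell was kept when it held at least 500 detected genes, at most 10% mitochondrial unique molecular identifiers (UMIs), at least 3 UMIs over the NK receptor genes Ncr1, Klrb1c and Klrk1, 0 UMIs of the T cell gene Cd3e and at most 1 UMI over C1qa, C1qb, C1qc, H2-Aa and Pf4. Each kept cell was scored by the mean, over the 7 genes, of the natural logarithm of 1 plus its UMIs per 10000. The highest 5% of scores in each library were taken as the chemokine-high cells. They numbered 973 of 22400 barcodes and of 19478 kept cells, with 518 of 10361 kept cells in the control library and 455 of 9117 in the knockout library. The score was measured in the same cells that it selected, so the levels of the 7 genes describe the choice and are not findings.

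The cells came from C57BL/6 mice and were sorted as positive for CD27 and CD11b. Both genotypes carried floxed alleles of the E-prostanoid 3 receptor gene (EP3, product of Ptger3), labelled EP3F/F in the control and NKp46CreEP3F/F in the knockout. In the knockout, Cre is driven from the gene of NKp46 (Ncr1), an activating receptor of NK cells, so cells that do not use that gene would keep the allele intact. Age, sex and any treatment are not given in the labels used here. Each library was 1 pool of 2 mice, so there was 1 library per genotype, cells were not replicates, and no p-value or spread between animals is given. Intervals are at the 95% level and cover only the error of counting UMIs.

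NK cells are innate lymphocytes that kill infected or transformed cells and release cytokines within hours of activation. Engaged activating receptors signal through calcium and protein kinase C to the transcription factors NFAT, AP-1 and NF-kappaB, which switch on chemokine, cytokine and receptor genes. Ccl3 and Ccl4 draw in T cells, macrophages and other NK cells, and Xcl1 draws in the dendritic cells that carry Xcr1. NF-kappaB also switches on genes of its own inhibitors, which end the response, and the NR4A and EGR factors are early genes that follow antigen or activating receptor signals. Prostaglandin E2 acts on NK cells through E-prostanoid receptors, of which EP4, product of Ptger4, raises cyclic AMP and EP3 lowers it.

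The sequences that precede the start sites of several genes described further on are shown first, because they hold the letters to which NF-kappaB and cyclic AMP responsive factors are known to bind. Only genes with a match were picked for display. The 250 bases before each start were taken from RefSeq on GRCm38.p6 and searched on both strands for the NF-kappaB consensus of 10 letters and for TGACG, the core of the cyclic AMP response element (CRE), whose full form is TGACGTCA. A start window with the NF-kappaB consensus was found for 8.23% of 27025 genes, one with TGACG for 19.8% and one with the full CRE for 1.77%. In the sequences of Nfkbia, Nfkbie and Rel, capitals mark the NF-kappaB consensus. In those of Nr4a1, Nr4a2 and Nr4a3, capitals mark TGACG or its reverse complement.
Nfkbia, chr12:55492648-55492696, minus strand: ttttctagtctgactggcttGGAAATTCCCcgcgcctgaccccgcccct
Nfkbie, chr17:45555574-45555623, plus strand: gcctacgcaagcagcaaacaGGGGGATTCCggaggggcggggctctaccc
Rel, chr11:23771031-23771081, minus strand: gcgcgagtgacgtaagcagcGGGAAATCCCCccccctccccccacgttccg
Nr4a1, chr15:101266596-101266830, plus strand: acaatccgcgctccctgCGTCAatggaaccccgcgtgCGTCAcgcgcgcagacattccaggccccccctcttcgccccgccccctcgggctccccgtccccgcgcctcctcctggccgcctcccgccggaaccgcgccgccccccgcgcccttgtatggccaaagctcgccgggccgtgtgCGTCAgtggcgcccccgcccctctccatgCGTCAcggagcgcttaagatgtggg
Nr4a2, chr2:57124090-57124223, minus strand: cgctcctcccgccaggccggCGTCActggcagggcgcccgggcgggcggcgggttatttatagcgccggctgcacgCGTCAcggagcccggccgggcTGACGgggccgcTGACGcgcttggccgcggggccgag
Nr4a3, chr4:48045055-48045182, plus strand: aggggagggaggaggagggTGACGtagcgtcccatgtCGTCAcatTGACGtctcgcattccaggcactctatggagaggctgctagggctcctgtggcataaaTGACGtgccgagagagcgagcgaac

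Each of the 3 NR4A windows held 4 copies of TGACG, counting both strands. The NF-kappaB consensus lay 29 to 20 bases before the start of Nfkbia, the gene of the inhibitor IkappaB-alpha. In Rel, the gene of the c-Rel subunit, 2 overlapping matches made the run in capitals. Among the genes that were more than 1.5-fold higher in the chemokine-high cells of both libraries, which numbered 84 of 7331 measured genes (1.15%), a window was listed for 74, and 17 of those 74 (23.0%) held the NF-kappaB consensus, against 599 of 5845 measured genes with a window (10.2%). TGACG stood in 28 of the 74 (37.8%) and in 34.1% of the 5845. In the list of NF-kappaB inhibitors and feedback targets described below, 11 genes were higher in both libraries and 10 of them had a window. The NF-kappaB consensus stood in 3 of these 10, Nfkbia, Nfkbie and Tnfaip3, so most of them lacked it. A match is a description of the letters and not a site of binding.

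Levels of NK markers outside the score were compared between the groups. Ncr1 and Klrk1 belong to the rule by which cells were kept, so their presence was fixed in both groups and does not check the label. Tyrobp was in neither the score nor that rule. Ncr1 stood at 842 UMIs per 1000000 UMIs (CPM) in the chemokine-high cells and 788 in the other kept cells of the control, and at 930 and 816 in the knockout. Klrk1, the gene of the activating receptor NKG2D, stood at 1481 and 1618 CPM in the control and at 1473 and 1603 in the knockout. Tyrobp, an adaptor of NK receptors, differed by log2 ratios of 0.01 in both libraries. CPM levels count 3' tags and are not divided by gene length. Of the 10 activation genes listed outside the score (Cd69, Ifng, Nfkbia, Tnfaip3, Nr4a1, Egr2, Rel, Irf4, Irf8 and Myc), every one was higher in the chemokine-high cells of both libraries, though Cd69 fell short of 1.5-fold in the control and Irf4 rested on 5 and 2 UMIs. These 10 genes were chosen with earlier results of these data known, so they describe the cells and do not test the label of activated NK cells. Of the 24 measured AP-1 and other immediate early genes, described further on, 0 were higher in both libraries.

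The chemokine-high cells carried slightly more UMIs than the rest, with a median of 6540 against 5803 in the control and 4203 against 3820 in the knockout. Cells with over 2 times the median UMIs of their library's kept cells were 8.11% of chemokine-high and 4.70% of other control cells. In the knockout they were 6.59% and 4.59%. The part of doublets in this was not tested. Their median mitochondrial share was 3.27% against 3.48% in the control and 3.75% against 3.89% in the knockout. The libraries shared 33 barcode sequences, of which 1 belonged to a chemokine-high cell. The libraries also stood apart as a whole. Among the other kept cells, 289 of 7331 measured genes (3.94%) were over 1.5-fold higher and 990 (13.5%) were over 1.5-fold lower in the knockout library than in the control. Genotype, pool and library therefore cannot be told apart, and results are given within each library first.

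**Figure D1:**
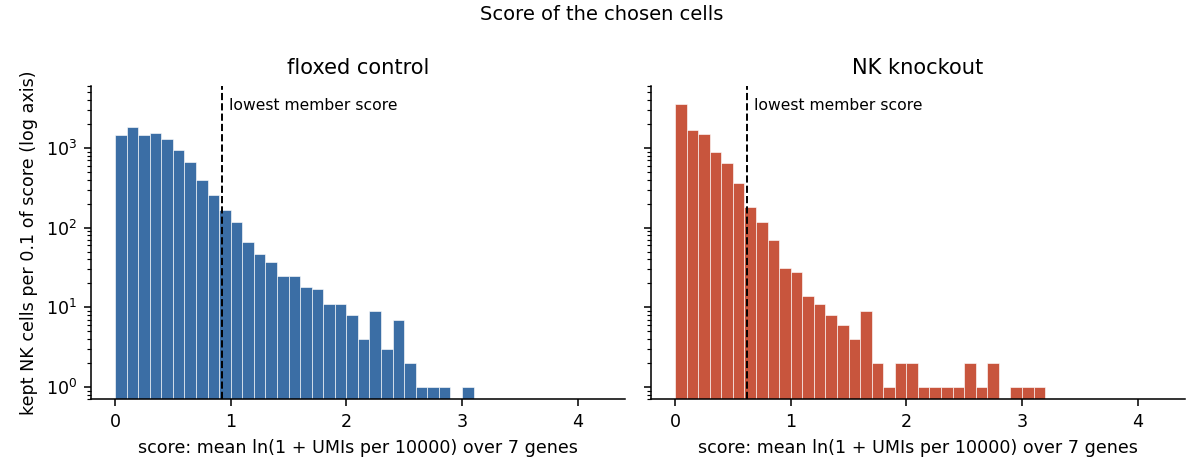
Score of every kept NK cell, as cells per 0.1 of score on a log axis, in the floxed control and the NK knockout library, with a dashed line at the lowest score of a chemokine-high cell. The cells above the line are the upper tail of a continuous distribution, and the line stands lower in the knockout.

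The score had no gap at the limit. In the control the lowest score inside was 0.929038 and the highest outside 0.929031, and in the knockout they were 0.62076 and 0.620493. The last control cell inside held 8 UMIs of Ccl3, 12 of Ccl4 and 1 of Nfkbid. The first control cell outside held 1 of Ccl3, 1 of Ccl4, 2 of Xcl1, 2 of Tnfrsf9 and 1 of Nr4a3. Scores were lower in the knockout as a whole: 38.5% of kept knockout cells had a score of 0, against 13.4% of control cells.

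Among the 3 chemokine genes, Ccl4 (ENSMUSG00000018930) stood at 2871 CPM in the chemokine-high cells against 204 in the other kept cells of the control and at 1500 against 91.9 in the knockout. Xcl1 (ENSMUSG00000026573) stood at 1898 against 199 CPM in the control and at 1275 against 92.2 in the knockout. Ccl3 (ENSMUSG00000000982) stood at 1047 against 145 and at 766 against 85.8 CPM. The chemokine-high cells were 5% of kept cells and held 45.5% of the control library's Ccl4 UMIs and 48.7% of the knockout's. They held 36.2% and 44.6% of the Xcl1 UMIs and 30.0% and 34.2% of the Ccl3 UMIs.

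Of the other 4 genes of the score, Tnfrsf9 (ENSMUSG00000028965), which encodes the costimulatory receptor 4-1BB, stood at 217 CPM in the chemokine-high cells and 35.9 in the rest of the control, and at 153 and 16.8 in the knockout. Crtam (ENSMUSG00000032021), a receptor for nectin-like ligands, stood at 127 and 20.8 CPM in the control and at 74.8 and 9.04 in the knockout. Nr4a3 (ENSMUSG00000028341), an orphan nuclear receptor made early after activation, stood at 101 and 5.19 CPM in the control and at 40 and 2.30 in the knockout. Nfkbid (ENSMUSG00000036931), a nuclear IkappaB protein, stood at 95.4 and 19.5 CPM in the control and at 95.1 and 16.6 in the knockout. Each of these 4 genes was thus at least 4.89-fold higher in the cells that the score selected.

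**Figure D2:**
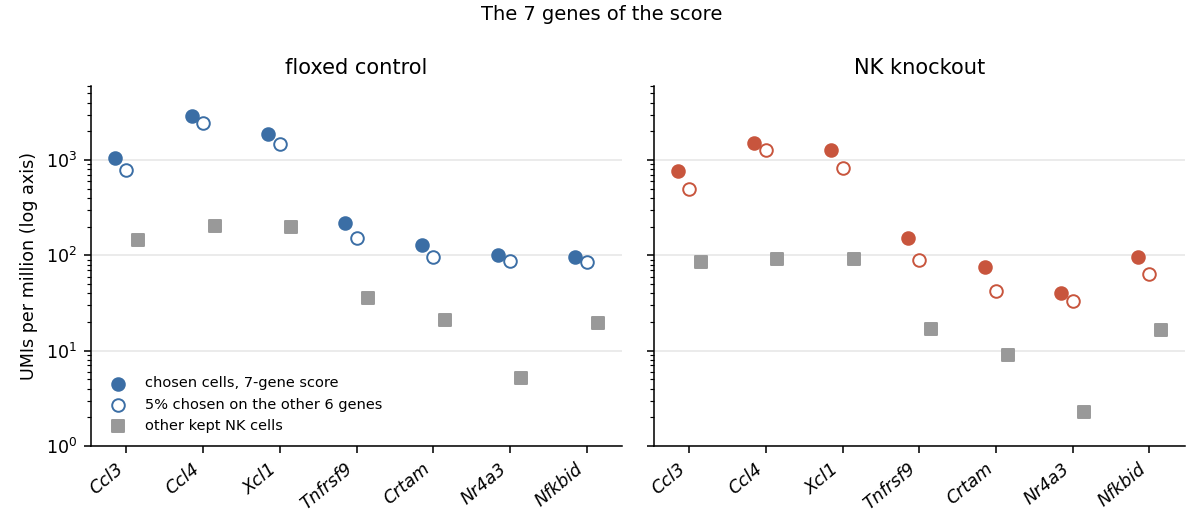
Levels of the 7 genes of the score in CPM on a log axis, in each library: filled points are the chemokine-high cells, open points the 5% of cells chosen on the other 6 genes, and grey squares the other kept NK cells. The open points lie close under the filled ones for each gene.

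To read a gene of the score apart from its own part in the choice, the 5% of cells was chosen again on the other 6 genes. In the control, Nr4a3 was then 14.7-fold higher in the chosen cells than in the rest, Ccl4 10.6-fold, Xcl1 6.45-fold and Ccl3 4.83-fold. Crtam was 4.26-fold, Nfkbid 4.22-fold and Tnfrsf9 3.86-fold higher. In the knockout the same readings gave 12.3-fold for Nr4a3, 11.8-fold for Ccl4, 6.79-fold for Xcl1 and 4.98-fold for Ccl3. There Tnfrsf9 was 4.31-fold, Crtam 3.86-fold and Nfkbid 3.49-fold higher. Each of the 7 genes was thus higher in cells chosen without it, in both libraries.

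The chemokines and the other 4 genes were also read against each other. In the 5% of cells chosen on the chemokines alone, Nr4a3 was at 89.8 CPM against 6.01 in the control and at 35.5 against 2.65 in the knockout, a ratio of 14.9 and 13.4. In the 5% chosen on the other 4 genes alone, Ccl4 was 6.90-fold higher in the control and 8.16-fold in the knockout, and Xcl1 was 5.93-fold and 6.24-fold higher. Ccl3 was the least tied to the other 4 genes, at 2.65-fold and 3.11-fold. The 2 choices shared 141 of 518 cells in the control (27.2%) and 84 of 455 in the knockout (18.5%), so they selected overlapping but mostly different cells. When each cell's UMIs were split at random into a pair of equal parts and each part was used for the choice, 57.7% of the control choice and 41.3% of the knockout choice were the same cells.

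The chemokine-high cells were themselves uneven. A control cell carried UMIs of a median of 4 of the 7 genes and a knockout cell of 3, against 2 and 1 in the other kept cells. All 3 chemokines were detected in 407 of the 518 control cells (78.6%) and in 188 of the 455 knockout cells (41.3%), against 10.5% and 0.797% of the other kept cells. A median control cell held 24 chemokine UMIs and the highest held 407, while a median knockout cell held 7 and the highest 471. The 51 control cells with the most chemokine UMIs held 40.2% of the total, and the 45 such knockout cells held 55.3%. Over all kept cells, the rank correlation between Ccl3 and Ccl4 was 0.27 in the control and 0.18 in the knockout. That between Xcl1 and Crtam was 0.17 and 0.10. These are weak correlations in sparse counts and share the depth of each cell.

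Shares of cells with a UMI were taken again with 2000 UMIs drawn from every cell. Of the chemokine-high cells, 1 in the control and 6 in the knockout were too shallow for this. Ccl4 was then found in 84.5% of chemokine-high and 25.6% of other control cells, and in 59.9% and 13.9% of knockout cells. Without thinning the shares for Ccl4 were 96.5% and 47.2% in the control and 79.8% and 23.0% in the knockout. As a measure of free RNA, cells with at least 10 UMIs over C1qa, C1qb and C1qc and at most 1 UMI over the NK genes were examined. Xcl1 and Ccl4 were found in 0 of 22 such control cells and 0 of 98 such knockout cells, at median depths of 1336 and 1456 UMIs. A count of 0 allows a share of up to 15.4% and 3.69% by the exact binomial interval. At 2000 UMIs per cell, 24 such knockout cells were left, and their count of 0 allows up to 14.2%. The 13.9% for Ccl4 in the other knockout cells lay under that limit and is not told apart from free RNA by these 24 cells. The 59.9% in the chemokine-high cells lay above it. In the control, 2 such cells were left, too few for a limit. With all UMIs, the 23.0% for Ccl4 in the other knockout cells lay above the 3.69%, and the control's 47.2% above the 15.4%. Depth was not matched there, since the other kept cells had medians of 3820 UMIs in the knockout and 5803 in the control. The part of free RNA was not tested.

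Genes outside the score were then compared between the chemokine-high and the other kept cells of each library. A gene was called measured at a mean of at least 10 CPM over kept cells, which 7331 genes outside the score reached, and higher or lower past 1.5-fold (a log2 ratio of 0.58). In the control 162 genes were higher (2.21%) and 209 lower (2.85%). In the knockout 165 were higher (2.25%) and 220 lower (3.00%). In both libraries 84 were higher (1.15%) and 53 lower (0.723%). These shares over all measured genes are the background for the counts of the gene lists below. The shared higher genes were 51.9% of the control's and 50.9% of the knockout's, and the shared lower genes 25.4% and 24.1%. For 83 of the 84 shared higher genes and 48 of the 53 shared lower genes the counting interval left out 0 in both libraries. With cells chosen on one random part of their UMIs and levels read in the other, 59 of the 83 higher genes still measured passed again in both libraries, but only 19 of the 51 lower ones did. Over genes, whose values are not independent, the log2 ratios of both libraries correlated with a Pearson r of 0.56 over 7331 genes and of 0.86 over the 616 genes of at least 200 CPM.

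**Figure D3:**
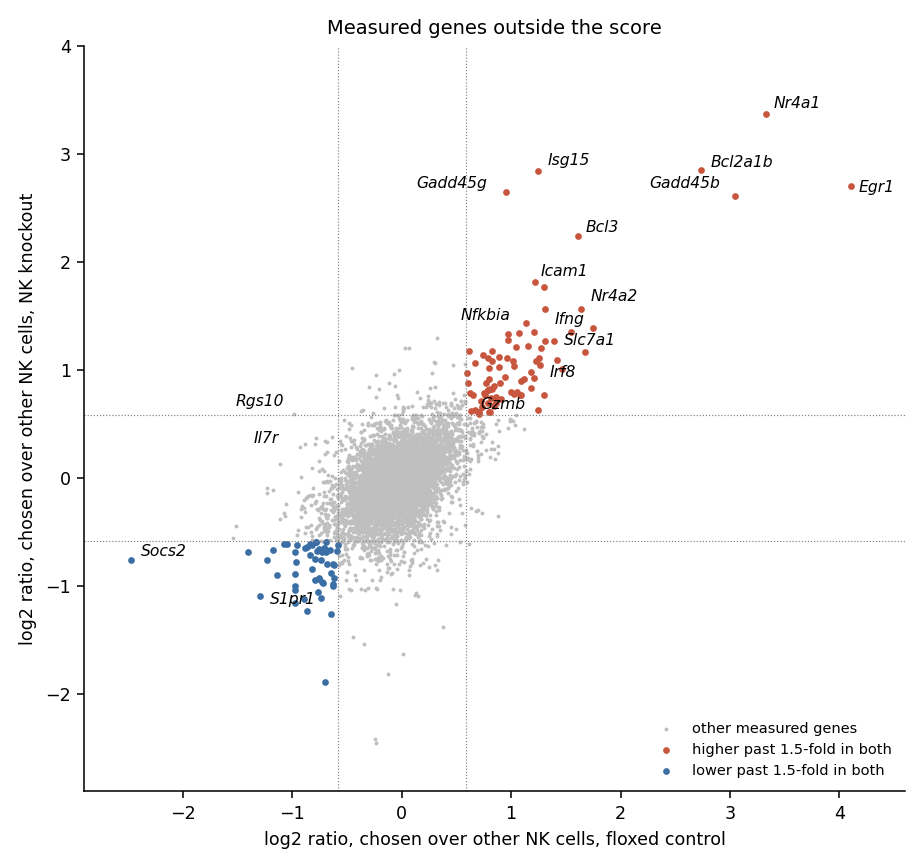
Log2 ratio of chemokine-high over other kept NK cells for the 7331 measured genes outside the score, floxed control on the x axis and NK knockout on the y axis, with dotted lines at 1.5-fold. Nr4a1, Bcl2a1b, Egr1 and Gadd45b lie at the far upper right, Isg15 and Gadd45g lie higher on the knockout axis, and S1pr1 and Socs2 lie at the lower left.

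Orphan nuclear receptors and EGR factors were higher in the chemokine-high cells of both libraries. Nr4a1, also known as Nur77 and made early after antigen receptor signals, stood at 95.4 CPM in the chemokine-high cells and 9.50 in the rest of the control, and at 52.2 and 5.04 in the knockout. Its log2 ratios were 3.33 (3.13 to 3.52) and 3.37 (3.02 to 3.72). Its relative Nr4a2 stood at 80.0 and 25.7 CPM in the control and at 29.2 and 9.84 in the knockout, with log2 ratios of 1.64 and 1.57. Both measured NR4A genes outside the score were therefore higher past 1.5-fold in both libraries.

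Egr1, an early zinc finger factor downstream of MAP kinases, stood at 123 and 7.18 CPM in the control and at 43.8 and 6.71 in the knockout, with log2 ratios of 4.10 and 2.70. Its co-regulator Nab2, which binds EGR proteins and limits them, had log2 ratios of 1.15 and 1.23. Orai1, the pore of the calcium channel that feeds NFAT, had log2 ratios of 1.23 and 1.09. These were the 3 genes of 12 measured in the list of NFAT and EGR targets that were higher in both libraries, and the list's median was 0.24 in the control and 0.11 in the knockout, against -0.04 and -0.02 over all measured genes. Egr2 and Egr3, which were under the 10 CPM minimum and of which Egr3 was chosen after its values were seen, are 2 further members of that family. Egr2 stood at 29.7 CPM in the chemokine-high cells and 0.722 in the rest of the control, and at 10.8 and 0.384 in the knockout. Egr3 stood at 51.1 and 0.562 CPM and at 28.2 and 0.356, and it was found in 96 of 518 control cells (18.5%) and 22 of 455 knockout cells (4.84%).

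Of the NF-kappaB subunit genes, those of the alternative pathway and of c-Rel passed 1.5-fold and the classical pair did not. Nfkb2, the p100 precursor, stood at 39.2 and 13.4 CPM in the control and at 36.2 and 14.2 in the knockout, with log2 ratios of 1.55 and 1.35. Relb had log2 ratios of 1.28 and 1.21 and Rel of 1.18 and 0.98. Nfkb1 and Rela, the classical pair, had log2 ratios of 0.40 and 0.34 in the control and of 0.51 and 0.39 in the knockout, under 1.5-fold. In all, 3 of 5 subunit genes were higher in both libraries and 0 were lower.

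Of the 20 measured genes of the list of NF-kappaB inhibitors and feedback targets, 11 were higher in both libraries and 1, Otud1, was lower. The shares over all measured genes were 1.15% and 0.723%. The list medians were 0.75 and 0.79. Nfkbia stood at 357 and 154 CPM in the control and at 477 and 187 in the knockout, with log2 ratios of 1.21 (1.13 to 1.29) and 1.35 (1.26 to 1.45). Bcl3, a nuclear IkappaB protein, had log2 ratios of 1.61 and 2.24. Gadd45b, a stress gene that restrains cell death, stood at 75.7 and 9.18 CPM and at 74.8 and 12.2, with log2 ratios of 3.04 and 2.61. Bcl2a1b, a survival gene of the Bcl2 family, stood at 87.8 and 13.2 CPM and at 36.7 and 5.10, though it has near-identical copies among which the authors' counting could have split reads. Zc3h12a, a ribonuclease that degrades cytokine RNA, had log2 ratios of 1.27 and 1.04, and Tnfaip3, a ubiquitin editing inhibitor, of 0.90 and 0.88. Icam1, an adhesion ligand under NF-kappaB control, stood at 145 and 58.8 CPM in the control and at 201 and 59.1 in the knockout.

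The broader immediate early list lay nearer 0. Of 24 measured AP-1 and other immediate early genes, 0 were higher and 0 lower in both libraries, with medians of 0.15 and 0.18. Fos stood at 274 and 270 CPM in the control and at 110 and 124 in the knockout. Jun stood at 298 and 354 CPM and at 232 and 272, and Junb had log2 ratios of 0.09 and 0.19. Fos and Jun thus differed by less than 1.5-fold, unlike the NR4A genes and Egr1. Cd69, an early activation antigen, had log2 ratios of 0.58 in the control, just under 1.5-fold, and 1.06 in the knockout.

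Among cytokines and ligands, Ifng, the gene of interferon-gamma, stood at 258 CPM in the chemokine-high cells and 104 in the rest of the control and at 251 and 84.7 in the knockout, with log2 ratios of 1.31 (1.21 to 1.41) and 1.57 (1.43 to 1.70). At 2000 UMIs per cell it was found in 29.6% and 17.1% of control cells and in 30.1% and 15.3% of knockout cells. Tnfsf14, the costimulatory ligand LIGHT, stood at 80.3 and 32.4 CPM and at 38.1 and 15.8. Ifng was the 1 gene of 6 measured in the list of other cytokines and chemokines, and Tnfsf14 the 1 of 2 measured in the list of TNF family ligands, that were higher in both libraries. Ccl5, a chemokine that resting NK cells already store as RNA, stood at 16132 and 16705 CPM in the control and at 20595 and 21480.0 in the knockout, so its ratio to the rest lay just under 0 on the log2 scale, unlike those of Ccl3, Ccl4 and Xcl1. Tnf, Csf2 and Il2ra were under the minimum and were chosen after their values were seen. Tnf stood at 7.03 and 1.04 CPM in the control and at 5.65 and 0.767 in the knockout, from 26 and 12 UMIs in the chemokine-high cells. Csf2, the gene of GM-CSF, stood at 15.7 and 6.07 CPM and at 29.2 and 10.9. Il2ra, the high-affinity interleukin 2 receptor chain, rested on 11 and 17 UMIs.

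Of 21 measured genes of the cytotoxic granule list, 3 were higher in both libraries and 1 lower, against 1.15% and 0.723% of all measured genes. Gzmb, the gene of granzyme B, stood at 415 and 269 CPM in the control and at 489 and 284 in the knockout, with log2 ratios of 0.63 and 0.78. Srgn, the granule proteoglycan serglycin, had log2 ratios of 0.85 and 0.69, and Stx11, a syntaxin needed for granule release, of 0.73 and 0.71. Gzmk was lower, at 5.41 against 8.48 CPM and 9.88 against 23.6. Gzma, the gene of granzyme A, stood at 6894 and 8007 CPM in the control and at 8844 and 9767 in the knockout, and Prf1, the gene of perforin, had log2 ratios of 0.41 and 0.28. The granule genes were thus divided, with granzyme B on the higher side and granzyme A slightly on the lower side.

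Of 19 measured MYC, IRF and differentiation factors, 2, Myc and Irf8, were higher in both libraries, against 1.15% of all measured genes. The list medians were 0.07 and 0.18. Myc, a driver of growth, stood at 63.5 and 27.5 CPM in the control and at 50.4 and 26.5 in the knockout, with log2 ratios of 1.21 and 0.93. Irf8, an interferon regulatory factor that takes part in NK cell activation, stood at 648 and 271 CPM and at 532 and 246. Of 36 measured genes of ribosome biogenesis and growth, 35 had log2 ratios above 0 in both libraries, against 2078 of all 7331 measured genes. In this list 20 passed 1.5-fold in the control, 8 in the knockout and 8 in both, against 2.21%, 2.25% and 1.15% of all measured genes. Its medians were 0.63 and 0.37. Gnl3, a nucleolar GTPase, stood at 96.5 and 45.3 CPM and at 65.4 and 38.3, and Nop58, a core protein of small nucleolar ribonucleoproteins, at 132 and 72.5 and at 76.7 and 45.6. Slc7a1, a transporter of arginine and lysine, had log2 ratios of 1.39 and 1.27 and was the 1 gene of 19 measured in the glycolysis and nutrient list that was higher in both libraries. Of 14 heat shock genes, 13 were above 0 in both libraries and 1, the endoplasmic reticulum chaperone Hspa5, passed 1.5-fold in both, at 557 and 316 CPM and at 259 and 155. Of 14 measured cell division genes, 0 passed in both, and 6.56% of control and 5.49% of knockout chemokine-high cells were in the top 5% of a score of the division genes.

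A plot of single genes and medians sets 15 of the lists side by side. The NR4A receptors had the highest medians, at 2.48 and 2.47, followed by the NF-kappaB subunits at 1.18 and 0.98. The trafficking receptors had the lowest of the 15, at -0.46 and -0.38. NK receptors and Ly49 receptors lay near 0.

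**Figure D4:**
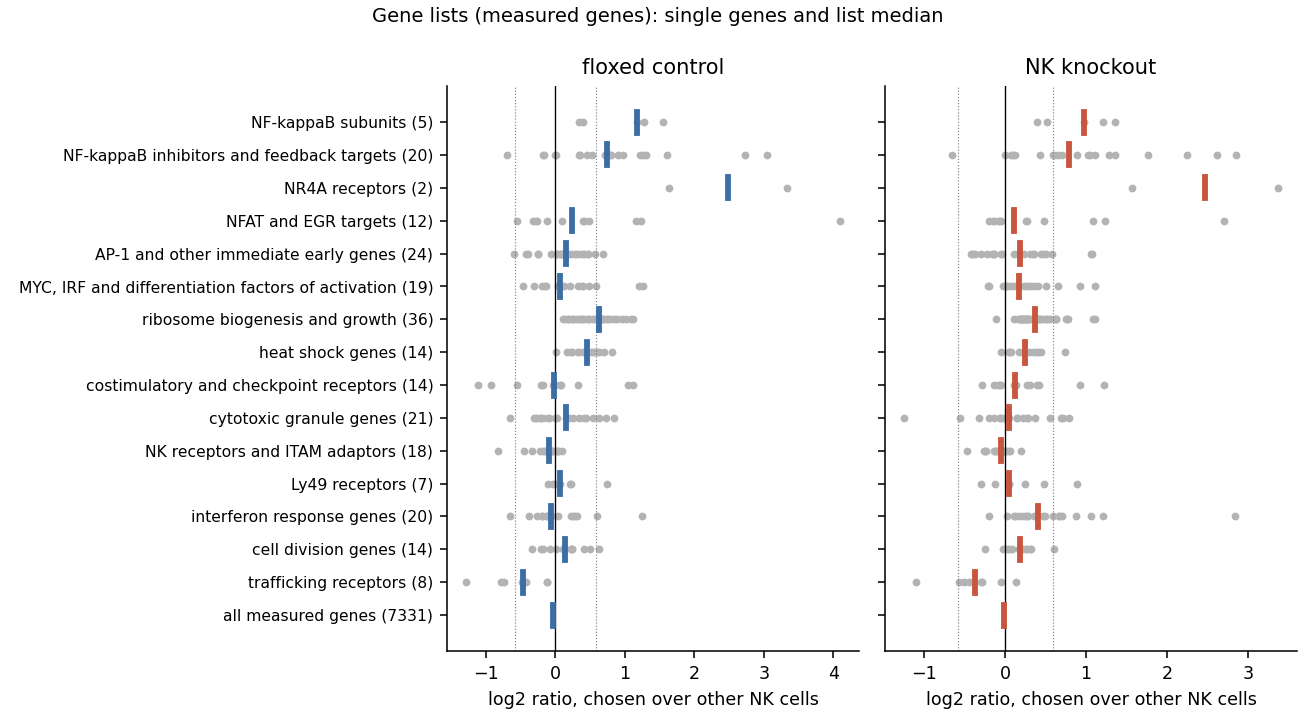
Log2 ratio of chemokine-high over other kept NK cells for the measured genes of 15 lists and the median over all measured genes, floxed control left and NK knockout right. Grey points are single genes, coloured bars are list medians, numbers in brackets are measured genes and dotted lines mark 1.5-fold. The NR4A, NF-kappaB and ribosome biogenesis lists lie right of 0 in both panels and the trafficking receptors left of it.

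Most surface receptors differed by less than 1.5-fold. Of 18 NK receptor and adaptor genes, 0 were higher or lower in both libraries, with medians of -0.10 and -0.06. The same held for the 7 measured Ly49 genes, a family with near-identical copies, with medians of 0.07 and 0.05. Of 14 measured costimulatory and checkpoint genes, 2 were higher in both, against 1.15% of all measured genes. Cd160, a receptor that triggers cytokine release in NK cells, stood at 263 and 121 CPM in the control and at 166 and 87.6 in the knockout. Slamf7, a self-ligand activating receptor, stood at 228 and 111 CPM and at 132 and 56.8. Ptpn6, the phosphatase SHP-1 that inhibitory receptors recruit, had log2 ratios of 0.62 and 1.18 and was the 1 of 24 genes of proximal signalling that was higher in both.

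Of the prostanoid list, 2 of 16 genes were measured. Ptger4 stood at 75.4 CPM in the chemokine-high cells and 45.2 in the rest of the control, and at 64.0 and 29.1 in the knockout, with log2 ratios of 0.74 (0.56 to 0.92) and 1.14 (0.87 to 1.40). Ptges3, a cochaperone that also makes prostaglandin E2, had log2 ratios of 0.21 and 0.11. Ptger3, the floxed gene, had 1 UMI in the control chemokine-high cells and 0 in the knockout ones. At the 3' end that these tags read, the deletion could not be checked in these cells. The 1 control UMI was a level of 0.270 CPM, while 3 UMIs of the 2125007 in the knockout ones would be 1.41 CPM. In the other kept cells, a UMI of Ptger3 was found in 0.112% of the control and 0% of the knockout. Gpr65, a proton-sensing receptor that also couples to cyclic AMP, stood at 210 and 130 CPM and at 199 and 131.

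Of 8 measured trafficking receptors, 3 passed 1.5-fold lower in the control, 1 in the knockout and 1, S1pr1, in both. Over all measured genes the shares lower were 2.85%, 3.00% and 0.723%. S1pr1, the sphingosine 1-phosphate receptor with which lymphocytes leave tissues, stood at 21.3 CPM in the chemokine-high cells and 52.3 in the rest of the control, and at 23.1 and 49.3 in the knockout, with log2 ratios of -1.29 (-1.63 to -0.97) and -1.10 (-1.54 to -0.69). Log2 ratios were below 0 in both libraries for 7 of the 8, against 2900 of all 7331 measured genes. S1pr5, with which NK cells leave bone marrow, had log2 ratios of -0.48 and -0.57, Cxcr4 of -0.74 and -0.51 and S1pr4 of -0.78 and -0.45. Klf2, a factor that drives S1pr1, stood at 868 and 1138 CPM in the control and at 1025 and 1349 in the knockout, under 1.5-fold lower. Socs2, an inhibitor of cytokine signalling, was lowest relative to the rest in the control, with 12 UMIs and 3.24 against 18.0 CPM, and stood at 20.7 against 35.1 in the knockout. Mxi1, which opposes Myc, stood at 4.86 and 11.4 CPM and at 8.47 and 14.4. Card6, a caspase recruitment protein, stood at 36.5 and 71.6 CPM and at 24.9 and 49.9. The others of the 15 lowest genes were Cnst, Mapk1ip1, Prune1, Sbk1, Hhat, Fyco1, Rfx3, Pck2, Samd10, Rell1 and Narf, which were at 22.0 CPM or less in the other kept cells and rested on 10 to 41 UMIs in the chemokine-high cells of a library.

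Levels were also read along the whole range of scores. Kept cells were ordered by score and divided into 20 bins, of which the top one holds the chemokine-high cells. Nr4a1 was between 3.34 and 13.0 CPM in bins 1 to 18 of the control, at 15.6 in bin 19 and at 95.4 in bin 20. Egr1 was at 2.04 to 9.01 CPM, then at 22.6 and 123. Nfkbia had a shallower profile, at 129 to 194 CPM in bins 1 to 18, then at 206 and 357. Cd160 differed from these: in the control it was at 82.7 CPM in bin 1, at 172 in bin 19 and at 263 in bin 20, a gradual slope. S1pr1 was at 64.9 CPM in bin 1, at 37.6 in bin 19 and at 21.3 in bin 20.

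**Figure D5:**
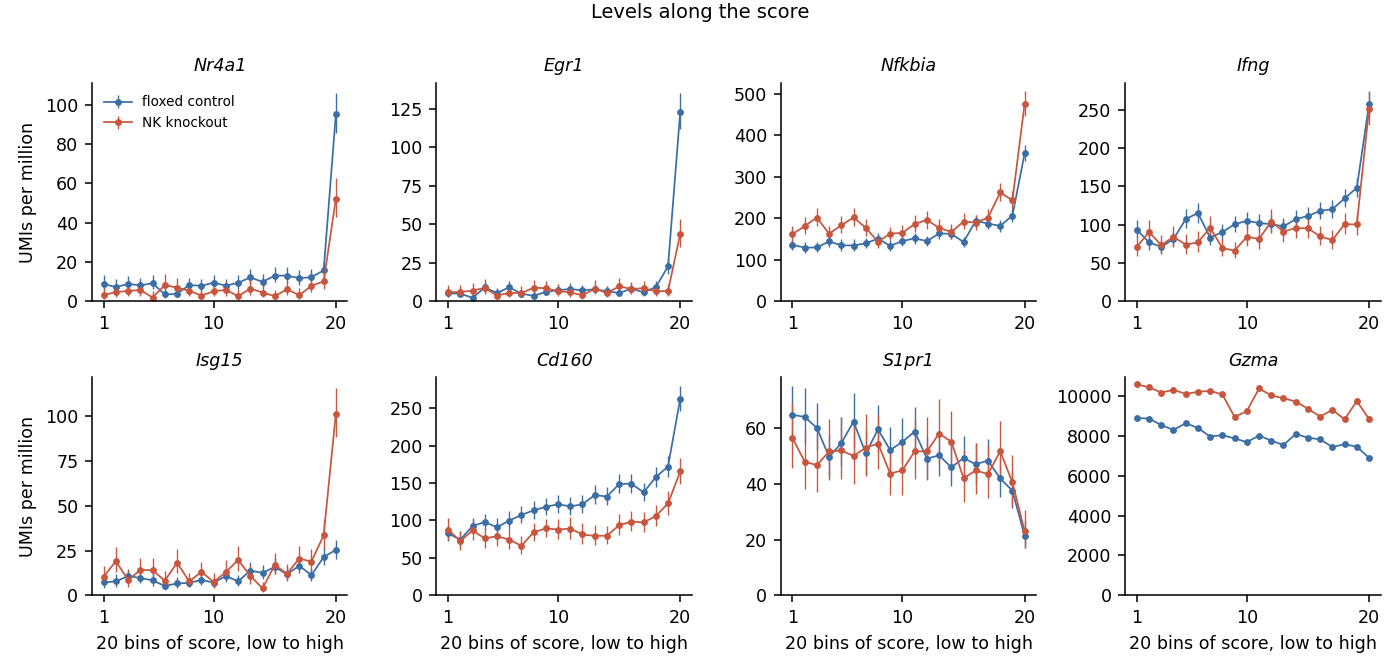
Levels of 8 genes in CPM over 20 bins of kept cells ordered by score, floxed control in blue and NK knockout in red, with 95% Poisson intervals as error bars. Nr4a1 and Egr1 stand far higher in the last bin than in any other, Cd160 is higher from bin to bin over much of the range in the control, and S1pr1 and Gzma decline. Cells with a score of 0 fill the first bins in file order.

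Within the chemokine-high cells Nr4a1, Egr1, Ifng and Myc were higher at higher score in both libraries. In the 259 control cells of higher score Nr4a1 was at 160 CPM, against 29.1 in the 259 of lower score and 9.50 in the other kept cells. In the knockout the corresponding levels of Nr4a1 were 88.6, 16.0 and 5.04. Egr1 was at 207, 36.8 and 7.18 CPM in the control and at 71.6, 16.0 and 6.71 in the knockout. Ifng was at 366, 145 and 104 CPM in the control and at 384, 118 and 84.7 in the knockout. Myc was at 95.3, 30.7 and 27.5 CPM in the control, where the lower-scoring cells were near the rest, and at 60.3, 40.4 and 26.5 in the knockout, where they were not. Gzma was at 6736, 7058 and 8007 CPM in the control and at 9132, 8557 and 9767 in the knockout. S1pr1 was lower at higher score, at 13.3, 29.6 and 52.3 CPM in the control and at 21.7, 24.4 and 49.3 in the knockout. Cd160 was at 302, 223 and 121 CPM in the control and at 166, 165 and 87.6 in the knockout.

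The genotypes were compared by the share of cells at high score and by levels within the chemokine-high cells. With the control limit of 0.929 applied to both libraries, 121 of 9117 knockout cells (1.33%, 1.10 to 1.58) scored as high as the 518 of 10361 control cells (5%). After all cells were thinned to 2000 UMIs the shares were 1.41% and 5%. Conversely 16.7% of control cells lay above the knockout limit. The knockout library thus had fewer cells of high score at matched depth, and this difference cannot be told apart from a difference between the libraries or pools.

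Within the chemokine-high cells, 531 of 7331 genes were over 1.5-fold higher in the knockout (7.24%) and 1168 lower (15.9%), against 3.94% and 13.5% in the other kept cells, which held more UMIs. The chemokine genes had ratios below 0 in both kinds of cell. Ccl4 had a log2 ratio of knockout over control of -0.94 in the chemokine-high cells and -1.15 in the rest, Xcl1 of -0.57 and -1.11, and Ccl3 of -0.45 and -0.76. Crtam had -0.77 and -1.20, Tnfrsf9 -0.50 and -1.09, and Nfkbid -0.01 and -0.23. Nr4a3 had -1.33 and -1.17, the lowest of the 7 in the chemokine-high cells and the only one lower there than in the rest. The choice of the top 5% in each library fixes part of this comparison. In the 121 knockout cells above the control limit, Ccl4 stood at 4194 CPM against 2871 in the 518 control cells, Xcl1 at 2810 against 1898 and Ccl3 at 1719 against 1047. These are shares of all UMIs. Per cell the UMIs were close, at means of 19.97 and 20.51 for Ccl4, 13.4 and 13.6 for Xcl1 and 8.18 and 7.48 for Ccl3, and these are the genes on which the cells were chosen. Nfkbia in the knockout cells stood at 684 against 357 CPM, Icam1 at 314 against 145 and Ifng at 415 against 258, while Egr1 stood at 111 against 123 and Nr4a2 at 76.4 against 80.0.

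Among genes outside the score, the 8 with the largest excess of the knockout ratio in chemokine-high over other cells were Isg15, Socs2, Il7r, Gadd45g, Rgs10, Slfn9, Slamf6 and Dyrk1b. Isg15, a ubiquitin-like protein made in response to interferon, stood at 25.4 CPM in chemokine-high and 10.7 in other cells of the control, and at 102 and 14.2 in the knockout. It was found in 41 of 518 and 46 of 455 chemokine-high cells. Gadd45g, a stress gene that promotes interferon-gamma production, stood at 41.6 and 21.5 CPM in the control and at 120 and 19.1 in the knockout, in 77 and 84 cells. Il7r, the interleukin 7 receptor chain of less mature lymphocytes, stood at 16.5 and 31.4 CPM in the control, where 31.1% of its UMIs in chemokine-high cells came from 1 cell, and at 78.1 and 64.0 in the knockout. Slamf6, a self-ligand receptor, stood at 11.4 and 24.5 CPM and at 40 and 36.6.

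The 8 with the largest deficit were Egr1, Uxs1, Lrrc61, Nol6, Gzf1, Cenpw, Tada2b and Agpat5. Egr1 had a log2 ratio of knockout over control of -1.49 in the chemokine-high cells and -0.10 in the rest. It was found in 128 of 518 control and 36 of 455 knockout chemokine-high cells. At 2000 UMIs per cell the shares for Egr1 were 13.0% and 4.68%, against 1.24% and 1.18% of the other kept cells. The other 7 genes rested on 9 to 27 UMIs in the knockout chemokine-high cells. At the common limit the difference in Egr1 was a log2 ratio of CPM of -0.15 (-0.55 to 0.23). Its mean UMIs per cell there were 0.529 in the knockout and 0.880 in the control.

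Of 20 measured interferon response genes, 2 passed 1.5-fold in the control and 8 in the knockout, with medians of -0.07 and 0.41, and Isg15 and Bst2 passed in both. Bst2, the antiviral tether tetherin, stood at 61.3 and 40.4 CPM in the control and at 57.4 and 31.2 in the knockout. Rtp4 had log2 ratios of 0.31 and 1.06, Zbp1, a sensor of viral nucleic acid, of 0.25 and 0.70 and Gbp4, a guanylate binding protein, of 0.22 and 0.66. The 36 listed genes summed to 1891 CPM in the control chemokine-high cells and 1998 in the knockout ones. In the other kept cells they summed to 1997 and 1439. Knockout against control, the 20 measured genes had a median of -0.04 in the chemokine-high cells, with 4 higher and 0 lower. In the other kept cells it was -0.45, with 0 higher and 8 lower. The list was thus lower in the other knockout cells and close between libraries in the chemokine-high ones. The difference between the libraries' ratios was not tested. Cxcl10, an interferon-induced chemokine under the minimum and chosen after its values were seen, stood at 21.3 and 1.49 CPM in the control and at 190 and 5.65 in the knockout. It came from few cells: 11 of 518 control cells, of which 1 gave 73.4% of the UMIs, and 22 of 455 knockout cells, of which 1 gave 23.3%. A score of the interferon genes put 33 of 518 control (6.37%, 4.43 to 8.83) and 47 of 455 knockout chemokine-high cells (10.3%, 7.69 to 13.5) in its own top 5%.

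The top 5% of a score of heat shock genes held 107 of the 518 control chemokine-high cells (20.7%, 17.2 to 24.4) and 56 of the 455 knockout ones (12.3%, 9.43 to 15.7). Heat shock genes were also far lower in the knockout library as a whole, with median log2 ratios of knockout over control of -1.45 in the chemokine-high and -1.28 in the other kept cells. The part of heat shock RNA in the ratios of the chemokine-high cells was not tested.

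Markers of other cell types were read beside these results as summed levels over each list. The 16 macrophage and monocyte markers summed to 72.2 CPM in chemokine-high and 66.3 in other control cells, and to 72.5 and 90.0 in the knockout. The 12 B cell markers summed to 110 and 119 CPM and to 111 and 93.2, with Ms4a1 and Pax5 at 0 in the chemokine-high cells. The 15 T cell markers summed to 694 and 728 CPM and to 996 and 950, with Cd4, Cd8a and Cd8b1 at 0 in the chemokine-high cells of both libraries. Cd3d, a chain of the T cell receptor complex, went the other way, at 24.6 and 11.9 CPM in the control and at 26.4 and 15.1 in the knockout, with log2 ratios of 1.05 and 0.80. A UMI of Cd3d was found in 8.49% of chemokine-high and 5.13% of other control cells, and in 7.47% and 4.27% of knockout cells. Cd3g, another chain of that complex, was found in 6.37% and 4.70% of control cells and in 9.23% and 8.24% of knockout cells. In the control chemokine-high cells, 1 cell gave 23.0% of the Cd3g UMIs. Of the 694 CPM summed there over the T cell markers, Trbc1 made 325 and Trbc2 143. Trbc1 was also found in 78.2% of the other control cells. The 15 dendritic cell markers were higher, at 793 and 415 CPM and at 712 and 432, of which Irf8 made 648 and 271 and 532 and 246, and the defining genes Flt3, Xcr1, Clec9a and Siglech were at 0. The 8 platelet markers summed to 115 and 69.7 CPM and to 122 and 62.8, of which Nrgn made 100 and 56.8 and 103 and 45.3. The 8 erythroid markers summed to 187 and 216 CPM and to 216 and 302, and the 11 ILC1 markers to 59.5 and 80.1 and to 180 and 138. The 14 neutrophil, basophil and mast cell markers summed to 0.541 and 3.02 CPM and to 8.0 and 10.7. No list other than those of dendritic cells and platelets was over 1.5-fold higher in the chemokine-high cells. The rule for kept cells allowed 0 UMIs of Cd3e and at most 1 over C1qa, C1qb, C1qc, H2-Aa and Pf4 in both groups. Sums over lists that hold these genes were therefore limited in advance. The part of these markers in the results was not tested.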

How the data were processed

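The deposited files hold UMI counts per gene and barcode for 2 libraries of sorted splenic NK cells. The submitters' processing notes list STAR, Cell Ranger 3.0.0 and Seurat, with GRCm39 as the build. A 3' droplet kit is named in the labels' protocols. No barcode was removed as a doublet and no doublet caller was run. With Python 3.11.15, using pandas 2.3.3, numpy 2.4.6 and scipy 1.17.1 (figures: matplotlib 3.10.9), cells were kept and scored as described above. UMIs were summed over the chemokine-high and over the other kept cells of a library, divided by all UMIs of those cells and given per 1000000 UMIs (CPM). Log2 ratios carry exact conditional binomial 95% intervals, and shares exact binomial ones. UMIs of 1 cell are not independent of each other, so intervals and limits cover counting error only. The libraries held 69853026 and 42795121 UMIs, and the chemokine-high cells 3700263 and 2125007. No test between conditions was possible with 1 library per genotype. Steps that read ratios across genes were tested on simulated data.

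The cells and the gene lists were chosen with earlier results of these data known. Genes were named from a set, not all of which is described. It held the 7 of the score, Ptger3, Ptger4, Ncr1, Klrb1c and Klrk1, and the 15 highest and 15 lowest by the smaller of the 2 libraries' ratios. It also held up to 6 per list by the same ranking. The last were the 8 highest and 8 lowest differences of the knockout ratio among genes with at least 50 UMIs in the chemokine-high cells. Of the 15 highest, Tagap and Ppa1 were not described above. Tagap was found in 38.0% of chemokine-high and 20.5% of other control cells, and in 18.2% and 9.52% of knockout cells. For Ppa1 these shares were 17.8% and 9.25%, and 10.8% and 4.53%. Listed genes named for their role outside that ranking, such as Fos, Jun, Klf2 and Ccl5, were chosen after their values were seen. In all, 12 alternatives were planned and 2 were added after the data were seen. Promoter sequences are from RefSeq on GRCm38.p6, whose coordinates were not combined with the deposited files.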

Additional observations from a re-analysis of the deposited data

Results flagged for a closer look

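For Rgs10 and Gm26870 the chemokine-high cells lay on opposite sides of the other kept cells in the 2 libraries, past 1.5-fold each way. The difference was not tested, since each genotype had 1 library. Rgs10, a regulator of G protein signalling, stood at 3.24 CPM in the chemokine-high and 6.41 in the other cells of the control, and at 20.7 and 13.7 in the knockout. The log2 ratio of Rgs10 in the knockout minus that in the control was 1.58, from 12 and 44 UMIs in the chemokine-high cells. Gm26870, a predicted gene chosen after its values were seen, stood at 19.7 and 12.9 CPM in the control and at 9.41 and 14.4 in the knockout, a difference of -1.23 from 73 and 20 UMIs.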

How the results depend on the processing

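Counts of higher and lower genes are given for the control, the knockout and both libraries in that order. With the highest 2.5% of scores, 255, 334 and 137 genes were higher and 506, 595 and 149 lower. With the highest 10%, 92, 84 and 52 were higher and 51, 53 and 8 lower. With no minimum level, 919, 1113 and 480 were higher and 953, 970 and 247 lower. With a minimum of 50 CPM, 31, 32 and 19 were higher and 35, 14 and 7 lower. In cells with no UMIs of other lineages, which left 69 control and 104 knockout chemokine-high cells, 725 and 503 were higher in the control and knockout, and 1092, 1054 and 240 lower. Cells chosen and read in separate parts of their UMIs gave 367 and 411 lower genes in the control and knockout. Scoring at 2000 UMIs gave 33 genes lower in both libraries, the choice on the chemokine genes 23 and that on the other 4 genes 22, and these last 2 choices gave 90 and 251 genes higher in the control.

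For knockout over control, no minimum level gave 1903 higher and 2119 lower genes in the chemokine-high and 1048 and 1671 in the other cells. A minimum of 50 CPM gave 90 and 408, and 54 and 401. Cells with no UMIs of other lineages gave 1244 and 1936 in the chemokine-high cells. The stricter cell filter, weighting by depth, median of ratios, equal weight of cells and leaving out shared barcodes kept every count within 1.5 times. Under these 5 settings between 79 and 84 of the 84 genes higher in both libraries passed again, and between 43 and 52 of the 53 lower ones. Fewer passed again under others: 63 and 22 with scoring at 2000 UMIs, 55 and 12 with the choice on the chemokines, 64 and 7 with that on the other 4 genes, 50 and 7 with the highest 10%, and, with no UMIs of other lineages, 42 of 75 and 12 of 47 still measured.

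The remaining reversals were of sign. With no UMIs of other lineages, the log2 ratio of chemokine-high over other cells was -0.18 for Bst2, -0.31 for Gadd45g, -1.34 for Gm26870, 0.31 for Gzmk, 0.19 for Hhat, 0.58 for Mxi1 and 0.88 for Prune1 in the control. In the knockout it was -0.13 for Cd3d, 0.0771 for Cnst, 0.0177 for Gm26870, -0.0475 for Gnl3, 0.41 for Pck2 and 0.45 for Samd10. There the ratio of knockout over control was 1.91 for Cnst, 1.72 for Gm26870, -1.09 for Hhat and Mxi1, 0.91 for Lrrc61, 0.0461 for Nr4a2, -1.26 for Prune1 and 0.19 for Rel. That ratio was -0.40 for Hhat with the highest 2.5%, 0.00411 for Cenpw with the highest 10% and 0.34 for Cenpw with the choice on the other 4 genes. That choice gave 0.0855 for Gzf1 and -0.0893 for Rgs10 in the knockout and 0.16 for Il7r in the control. Separate parts of the UMIs gave 0.10 for Gm26870 in the knockout, and no minimum level gave a prostanoid list median of -0.0211 there. The cause was not tested. No paired analysis was possible because each genotype had 1 library.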
